A study of Mus musculus with 11 samples.

Results

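The mRNA levels of 10 genes, the transcription factor gene *Myc* and *Npm1*, *Ncl*, *Fbl*, *Nop56*, *Nop58*, *Dkc1*, *Nolc1*, *Srm* and *Odc1*, which belong to nucleolar ribosome production and to polyamine synthesis, were described in AML12 cells, a mouse hepatocyte line. The members were the entries of the deposited count table that carry these names, with the counts of entries of the same name added together, and all 10 of the 10 were found among 24849 genes. The 11 libraries of polyadenylated RNA comprised 4 KO libraries (numbered 5, 6, 7 and 8), 3 WT libraries (5-6, 7 and 8) and 4 KI libraries (5, 6, 7 and 8). KO cells are AML12 in which *Txndc5*, the gene of an endoplasmic reticulum thioredoxin-like protein, was disrupted with CRISPR/Cas9 and a puromycin cassette, so that they are a drug-selected line, although the label calls their genotype a knockdown. KI cells carry TXNDC5 at the ROSA26 safe-harbour locus to overexpress it, and WT cells are the unedited AML12. All lines were grown in the same serum-containing medium with insulin, transferrin, selenium and dexamethasone and were harvested near confluence. Nothing in the labels tells whether libraries of a line came from separate cultures or clones, so p-values measure the spread between these libraries, which may be technical, and line and genotype cannot be told apart. Total counts per library ran from 30380360 to 38422243 in KO, from 29840366 to 30364098 in WT and from 32360709 to 35335070 in KI, and the 10 genes took 0.191 to 0.272% of them.

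The nucleolus is where ribosomal RNA is transcribed, cut, chemically modified and joined to ribosomal proteins. *Myc* encodes a transcription factor that, paired with MAX, binds the DNA motif CACGTG and is known for raising genes of ribosome production, nucleotide synthesis and polyamine synthesis in growing cells, among them the regenerating liver. Fibrillarin (*Fbl*), NOP56 and NOP58 are core proteins of box C/D small nucleolar ribonucleoproteins, which methylate ribosomal RNA, dyskerin (*Dkc1*) is the pseudouridine synthase of the box H/ACA particles, and NOLC1 is a shuttling chaperone of both. Nucleolin (*Ncl*) and nucleophosmin (*Npm1*) are abundant nucleolar proteins of ribosome assembly. Ornithine decarboxylase (*Odc1*) makes putrescine and spermidine synthase (*Srm*) turns it into spermidine.

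The labels were checked first on the edited gene. *Txndc5* stood at 10.2 ± 1.90 CPM (counts per 1000000, scaled by TMM over all libraries; SD, n = 4) in KO, at 143 ± 4.37 (n = 3) in WT and at 169 ± 10.3 (n = 4) in KI. It was 14.1-fold lower in KO than in WT (log2 fold change -3.81, SE 0.15, adjusted p = 4.09e-08, edgeR quasi-likelihood test). In the libraries labelled KI it was higher than in each WT library, but the difference was not called (log2 fold change 0.24, 95% interval -0.03 to 0.51, adjusted p = 0.136), although it was called when libraries were scaled by their totals (0.57, adjusted p = 0.00623). KI is therefore used below as the name of those libraries.

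The lines also differed in what share of the counts a few entries took. The most abundant newly assembled entry held 11.3 to 17.1% of WT counts, 4.32 to 6.44% of KO counts and 4.82 to 9.12% of KI counts. TMM, which scales libraries so that most genes keep their level, gave fold changes with a median of -0.03 over all genes tested in KO against WT and of -0.02 in KI against WT. With library totals these medians were 0.38 and 0.30, so each fold change below is relative to the bulk of the genes. Since these are bulk cultures, fewer cells with high levels and less RNA per cell cannot be told apart.

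Per kilobase of coding sequence, *Npm1* was the most abundant of the 10 in every line, followed by *Ncl* (TMM CPM per kb, means: *Npm1* 692 in KO, 1771 in WT and 1186 in KI, *Ncl* 226, 187 and 210). *Srm* was the lowest, with 41.7 in KO, 7.48 in WT and 28.8 in KI. In WT it stood below *Dkc1* (20.1), its next neighbour, with no overlap between libraries, whereas in KO the libraries of *Srm*, *Myc* (42.0) and *Dkc1* (44.6) overlapped. *Nop56* ranked 6 in WT, where its libraries overlapped with those of *Odc1* and *Myc*, and 4 in KO, where they overlapped with those of *Nop58*. *Npm1* made up 55.4 to 68.2% of the counts of the 10 genes in WT libraries, 39.8 to 44.1% in KI and 28.0 to 33.3% in KO, with no overlap between lines. The other 9 together amounted to 948 ± 42.8 CPM in WT (SD, n = 3), 1398 ± 70.4 in KO (n = 4) and 1425 ± 96.6 in KI (n = 4).

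The spread between libraries was widest in WT for most of the genes. The coefficient of variation of a member had a median of 8.91% over the 10 genes in KO, 10.8% in KI and 20.8% in WT, where it reached 32.1% for *Npm1*. It was lowest in WT for *Myc* (5.28%) and *Fbl* (7.46%), and for *Ncl* it was 5.18% in WT and 15.2% in KI. The WT libraries did not shift as a block, since library 5-6 was highest for *Npm1* and *Nop56* while library 8 was lowest for *Nop58* and *Dkc1* and highest for *Nolc1*.

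**Figure D1:**
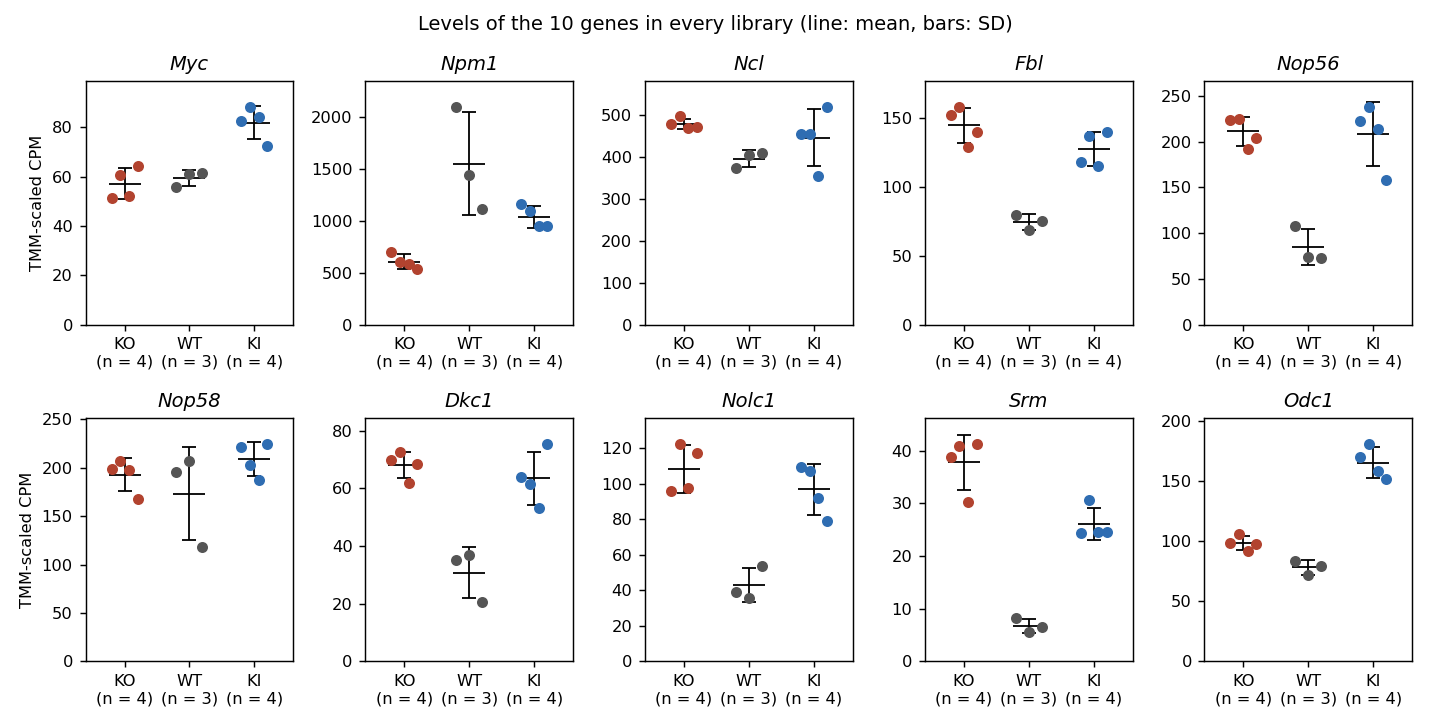
TMM-scaled CPM (y axis, from 0, own scale in each panel) of each of the 10 genes in the 4 KO, 3 WT and 4 KI libraries, with 1 point per library, the mean as a line and the SD as bars. All KO and KI libraries lay above all WT libraries for Fbl, Nop56, Dkc1, Nolc1, Srm and Odc1, all KO libraries lay below all others for Npm1, and all KI libraries lay above all others for Myc and Odc1.

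*Myc* itself (chr15:61985391-61990374, plus strand, GRCm38) differed from most of the other genes in KO against WT, where it was not called, and rose in KI. Its level was 51.3, 60.6, 52.3 and 64.5 CPM in KO libraries 5 to 8, 55.9, 60.9 and 61.7 in WT libraries 5-6, 7 and 8, and 82.8, 88.2, 84.1 and 72.6 in KI libraries 5 to 8. KO and WT overlapped, while each KI library was above all others. The log2 fold change in KO against WT was -0.08 (95% interval -0.35 to 0.20, adjusted p = 0.625), and its sign turned with library totals (0.33, adjusted p = 0.103). *Myc* was 1.38-fold higher in KI than in WT (log2 fold change 0.46, SE 0.13, adjusted p = 0.0127) and 1.43-fold lower in KO than in KI (-0.51, SE 0.10, adjusted p = 0.000481).

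Of the box C/D core, *Fbl* and *Nop56* rose in both edited lines and *Nop58* did not pass the test in either. *Fbl*, the methyltransferase, was at 152, 158, 129 and 140 CPM in KO, 79.9, 68.8 and 75.2 in WT and 118, 137, 115 and 140 in KI. WT libraries lay apart from those of both other lines, which overlapped, and the gene was 1.91-fold higher in KO (log2 fold change 0.93, SE 0.12, adjusted p = 9.24e-05) and 1.71-fold higher in KI (0.77, SE 0.13, adjusted p = 0.000643) than in WT. Genes tested on chromosome 7, where *Fbl* lies, had a median log2 fold change of 0.53 in KO and 0.10 in KI against WT. *Nop56* was at 223, 225, 192 and 204 CPM in KO, 108, 74.2 and 73.3 in WT and 223, 238, 214 and 158 in KI. Again the WT libraries alone stood apart, and the difference was 2.45-fold in KO (log2 fold change 1.29, SE 0.16, adjusted p = 5.68e-05) as in KI (1.29, SE 0.19, adjusted p = 0.000169).

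*Nop58*, the third core protein, was at 198, 207, 198 and 168 CPM in KO, at 195, 207 and 118 in WT and at 221, 203, 188 and 225 in KI. The lines overlapped, and only WT library 8 was below the rest. Its log2 fold change was 0.13 in KO against WT (95% interval -0.28 to 0.54, adjusted p = 0.572) and 0.27 in KI against WT (-0.13 to 0.67, adjusted p = 0.263). Without WT library 8 the KO against WT value was -0.05, and with library totals it was called (0.57, adjusted p = 0.00799), as it was with TMM within bins of genes of like GC content (0.47, adjusted p = 0.0069). Both of these settings also gave a call in KI against WT (0.62 and 0.52).

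*Dkc1* and *Nolc1*, which serve the H/ACA particles, rose in both lines. *Dkc1*, on chromosome X, was at 69.8, 72.6, 61.8 and 68.4 CPM in KO, 35.0, 36.8 and 20.5 in WT and 64.0, 61.6, 53.1 and 75.4 in KI. It was 2.18-fold higher in KO (log2 fold change 1.13, SE 0.19, adjusted p = 0.000541) and 2.06-fold higher in KI (1.04, SE 0.20, adjusted p = 0.00139) than in WT, with no overlap. *Nolc1* was at 95.8, 122, 97.5 and 117 CPM in KO, 39.2, 35.6 and 53.8 in WT and 109, 107, 91.8 and 78.9 in KI. The WT libraries were again the low ones, and the fold change was 2.49 in KO (log2 1.32, SE 0.17, adjusted p = 7.55e-05) and 2.26 in KI (log2 1.17, SE 0.17, adjusted p = 0.000217).

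The 2 abundant assembly proteins differed from this pattern. *Npm1* (chr11:33152287-33163206, minus strand) was at 702, 600, 589 and 535 CPM in KO, 2095, 1443 and 1116 in WT and 1159, 1091, 950 and 955 in KI. KO libraries were the lowest without overlap, and the gene was 2.59-fold lower in KO than in WT (log2 fold change -1.37, SE 0.20, adjusted p = 0.000205) and 1.71-fold lower than in KI (-0.77, SE 0.10, adjusted p = 1.52e-05). KI and WT overlapped, since WT library 8 lay between KI libraries 5 and 6. The KI against WT difference (log2 -0.58, SE 0.20, adjusted p = 0.0342) was no longer called in 6 of 7 fits that left out a library, the exception being the one without WT 8, and without WT 5-6 it was -0.30 (adjusted p = 0.173). It was not called with library totals either (-0.22). *Npm1* is among the genes that the study listed from these same libraries, so its fall in KO is not independent evidence. The paper also reported lower *Npm1* in KO cells by RT-qPCR, which was not examined here. Like many ribosomal protein genes *Npm1* has processed pseudogenes with near-identical sequence between which reads may be split.

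*Ncl* was at 478, 498, 470 and 472 CPM in KO, 373, 406 and 411 in WT and 455, 456, 355 and 520 in KI. All KO libraries were above all WT libraries, while KI libraries lay on both sides of WT. The log2 fold change was 0.25 in KO against WT (95% interval -0.01 to 0.51, adjusted p = 0.0923) and 0.17 in KI against WT (-0.17 to 0.50, adjusted p = 0.402). The first was called without WT 8 (0.31, adjusted p = 0.0234), by DESeq2 (0.23, adjusted p = 0.0186), with TMM within bins of GC content (0.43, adjusted p = 0.0144) and with library totals (0.66, adjusted p = 0.00172), and the second with library totals (0.49, adjusted p = 0.023).

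The genes of both enzymes of polyamine synthesis rose, *Srm* being highest in KO and *Odc1* in KI. *Srm* (chr4:148591503-148594993, plus strand) was at 38.7, 41.0, 30.2 and 41.3 CPM in KO, 8.20, 5.65 and 6.48 in WT and 24.4, 30.7, 24.6 and 24.7 in KI. WT was far below both lines, and *Srm* had the largest fold change of the 10 genes in either comparison with WT, 5.48-fold in KO (log2 2.45, SE 0.18, adjusted p = 1.9e-06) and 3.84-fold in KI (log2 1.94, SE 0.18, adjusted p = 6.41e-06). KO exceeded KI by 1.45-fold (log2 0.54, SE 0.12, adjusted p = 0.00137), although KO library 7 was below KI library 6.

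*Srm* was the only member with 2 entries in the table, and the split of counts between them was not the same in all libraries. In KO library 5 the entries held 40 and 1342 counts, and in KO library 6 they held 454 and 929. Taken alone, each entry was higher in KO than in WT, by 2.24 (SE 0.73, adjusted p = 0.026) and 2.51 (SE 0.27, adjusted p = 4.52e-05) on the log2 scale. Only the second differed between KO and KI (0.67, SE 0.18, adjusted p = 0.00627), the first being at 0.19 (SE 0.63, adjusted p = 0.825).

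*Odc1* (chr12:17544794-17551505, plus strand) was at 98.9, 106, 92.3 and 98.0 CPM in KO, 84.0, 71.7 and 79.2 in WT and 171, 181, 159 and 152 in KI. The lines did not overlap, with WT lowest and KI highest. It was 2.12-fold higher in KI than in WT (log2 1.08, SE 0.13, adjusted p = 5.41e-05) and 1.67-fold lower in KO than in KI (-0.74, SE 0.09, adjusted p = 3.73e-06). The KO against WT difference was small (log2 0.32, SE 0.11, adjusted p = 0.033), and it was not called without KO 5, KO 6, KO 8 or WT 7 (adjusted p up to 0.108) or with TMM within bins of GC content (0.18, adjusted p = 0.189).

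In numbers, 6 of the 10 genes rose in KO against WT (*Fbl*, *Nop56*, *Dkc1*, *Nolc1*, *Srm* and *Odc1*), *Npm1* fell and 3 did not pass the test. Of all 13359 genes tested, 55.1% were called, 26.7% as higher in KO and 28.4% as lower, so that a call in itself was common. The groups did not overlap for 8 of the 10 genes, against 55.3% of all genes. In KI against WT the same 6 genes and *Myc* rose, *Npm1* fell and 2 were not called, against 42.3% of 13534 genes called (21.2% higher, 21% lower), and 7 of the 10 did not overlap, against 44.7% of all genes. Both comparisons use the same 3 WT libraries, so their calls are not independent. The median log2 fold change of the 10 genes was 0.63 in KO and 0.91 in KI.

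Between KO and KI, which share no library, 4 genes differed, where 54% of 13269 genes were called. *Srm* was higher in KO, and *Npm1*, *Odc1* and *Myc* were lower. For the other 6 the 95% intervals bound the difference to between -0.31 and 0.41 on the log2 scale, *Nop58* having the lowest bound and *Nolc1* the highest. With library totals *Fbl* was also called higher in KO than in KI (0.25, adjusted p = 0.0296, edgeR). The groups did not overlap for 3 of the 10 genes, against 48.6% of all genes.

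**Figure D2:**
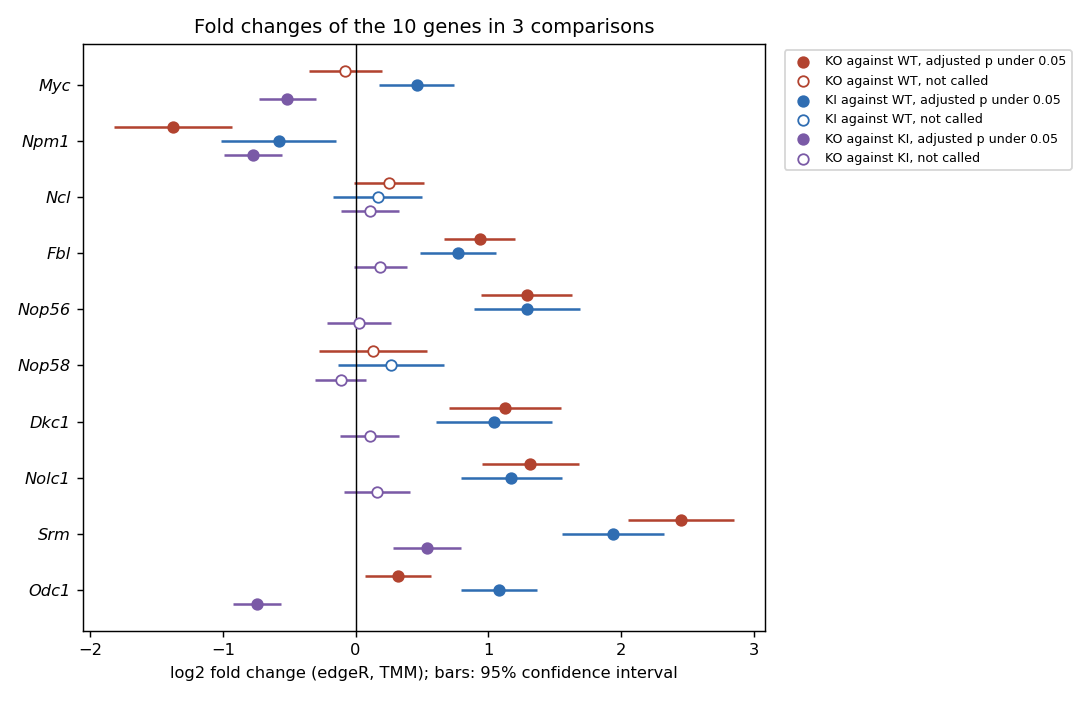
log2 fold change (x axis, edgeR with TMM) of each gene (y axis) in KO against WT (red), KI against WT (blue) and KO against KI (purple), with bars for the 95% confidence interval, filled points for an adjusted p under 0.05 and open points otherwise. Srm had the largest rise (2.45 in KO, 1.94 in KI), Npm1 was negative in all 3 comparisons, and Fbl, Nop56, Dkc1 and Nolc1 were near 0 between KO and KI.

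Ratios of counts between 2 genes of the same library do not depend on scaling, and the pairs below were chosen after the levels had been seen. The ratio of *Npm1* to *Ncl* was 1.13 to 1.47 in KO, 1.84 to 2.68 in KI and 2.71 to 5.62 in WT, so the lines did not overlap. *Srm* over *Odc1* was 0.381 ± 0.040 in KO (SD, n = 4), 0.158 ± 0.011 in KI (n = 4) and 0.0861 ± 0.010 in WT (n = 3), also without overlap. Within the box C/D core, *Nop58* over *Nop56* was 0.822 to 1.03 in KO, 0.853 to 1.42 in KI and 1.61 to 2.78 in WT. *Myc* over *Odc1*, a gene that MYC is known to activate, was 0.478 to 0.529 in KI, 0.519 to 0.658 in KO and 0.666 to 0.85 in WT.

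Over the 11 libraries the log2 levels of *Fbl* and *Srm* had a Pearson correlation of 0.98, those of *Nop56* and *Srm* 0.95 and those of *Npm1* and *Srm* -0.78. These points fall into 3 lines that share their scaling, and once the line means were taken away the values were 0.71, 0.69 and 0.43. Several other pairs kept less, as *Nolc1* and *Srm* (0.94 and then 0.35), *Fbl* and *Nop56* (0.91 and 0.19), *Fbl* and *Nolc1* (0.91 and 0.08) and *Dkc1* and *Nolc1* (0.77 and -0.61), while *Nop58* and *Dkc1* went from 0.72 to 0.90. The negative relation of *Npm1* and *Srm* was between lines and not within them. By the same measure the genes most like *Myc* over the 11 libraries were *Ptpn23* (r = 0.97), *Irs2* (0.97), *Itga3* (0.96), *Actg1* (0.96) and *Ank* (0.96). Like *Myc* they had similar means in KO and WT and a higher one in KI, as for the insulin receptor substrate gene *Irs2* (19.96, 20.3 and 37.99 CPM in KO, WT and KI) and the cytoplasmic actin gene *Actg1* (1126, 1165 and 2354). Most like the mean of the other 9 genes were *Fen1*, *Ercc6l*, *Snrnp40*, *Top2a* and *Emp1* (r = 0.98 each). The flap endonuclease gene *Fen1* was at 66.3 CPM in KO, 35.1 in WT and 77.7 in KI, and the topoisomerase gene *Top2a* at 246, 116 and 276.

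The wider machinery of ribosome production was read from lists of textbook genes. Of 41 tested genes of small subunit processing, 25 rose and 4 fell in KO against WT, and 26 rose and 3 fell in KI against WT, with medians of 0.53 and 0.71 on the log2 scale. Of all genes tested 26.7% rose and 28.4% fell in KO, and 21.2% and 21% in KI. By library totals 34 of the 41 rose and 2 fell in KO, and 31 and 1 in KI, where 42.5% and 34.1% of all genes were higher. Utp20 and Heatr1, large proteins of the small subunit processome, were among the most raised. *Utp20* was at 54.5 ± 8.09 CPM in KO (SD, n = 4), 10.1 ± 2.08 in WT (n = 3) and 45.0 ± 12.0 in KI (n = 4), which gave log2 fold changes of 2.40 and 2.15 against WT (adjusted p in KI = 2.07e-05). *Heatr1* had 2.32 and 2.07 and *Bysl* 2.12 and 1.67. The falls were led by *Fcf1* (-1.16 in KO, -0.97 in KI), *Pno1* (-0.83 in KO) and *Utp3* (-0.48 and -0.55).

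In large subunit processing 27 of 44 genes were raised and 4 lowered in KO and 28 raised and 1 lowered in KI (medians 0.45 and 0.66), against 26.7% and 28.4% of all genes in KO and 21.2% and 21% in KI. By library totals 34 were raised and 1 lowered in each line. The shares of all genes were then 42.5% higher and 15.9% lower in KO, and 34.1% and 10.6% in KI. *Urb1* stood at 18.1 ± 3.13 CPM in KO (SD, n = 4), 2.55 ± 0.19 in WT (n = 3) and 7.45 ± 0.79 in KI (n = 4), a log2 fold change of 2.78 in KO and 1.52 in KI, and it was 1.28 higher in KO than in KI. The AAA ATPase gene *Mdn1* (2.27 and 1.93) and *Bop1* of the PeBoW complex (1.71 and 1.77) rose in both lines. *Pes1*, another PeBoW gene, fell in KO (-0.62, from 219 ± 39.0 to 145 ± 15.4 CPM) and was at 253 ± 31.6 in KI. *Nsa2* fell in both lines (-1.11 and -1.12), and *Las1l* fell slightly in KO (-0.34) unless library totals were used (0.08, not called).

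Of 9 other nucleolar scaffold and helicase genes, 7 rose in KO and none fell, while 7 rose and 1 fell in KI (medians 1.09 and 0.80), against 26.7% higher and 28.4% lower of all genes in KO and 21.2% and 21% in KI. *Rrp8* (1.89 and 1.52), the RNA acetyltransferase gene *Nat10* (1.66 and 1.01) and *Tcof1*, whose product treacle serves RNA polymerase I (1.45 and 1.54), had the largest rises. Of 11 tested genes of snoRNP assembly, 4 were raised and 3 lowered in KO and 5 raised and 1 lowered in KI. The shares of all genes were 26.7% higher and 28.4% lower in KO, and 21.2% and 21% in KI. With library totals 6 and 7 were raised and none lowered, where 42.5% and 34.1% of all genes were higher. The H/ACA protein gene *Gar1* (1.42 and 1.57) and the AAA ATPase genes *Ruvbl2* (1.31 and 0.74) and *Ruvbl1* (1.15 and 1.16) rose. In contrast *Znhit3* (-0.89 in KO) and *Nufip1* (-0.38 and -0.66) fell, the KO value of *Nufip1* turning to 0.03 with library totals. Of 15 tested genes of the RNA polymerase I machinery, 7 were raised and 4 lowered in KO, and 6 and 2 in KI. Of all genes 26.7% were higher and 28.4% lower in KO, the latter near the share lowered here, and 21.2% and 21% in KI. With library totals 9 were raised and 1 lowered in KO, and 9 and none in KI. The shares of all genes were then 42.5% and 15.9% in KO, and 34.1% and 10.6% in KI. Its catalytic subunit genes *Polr1b* (1.95 and 1.34) and *Polr1a* (1.56 and 1.08) and *Polr1e* (1.38 and 1.27) rose, and *Taf1d* (-1.56 and -0.72) and *Polr1d* (-0.71 and -0.53) fell. *Polr1d* was not called in either line with TMM within bins of coding length. In KI the call of *Taf1d* was lost in 5 of 7 fits that left out a library, and that of *Polr1d* in 3. Library totals ended both of these KI calls.

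**Figure D3:**
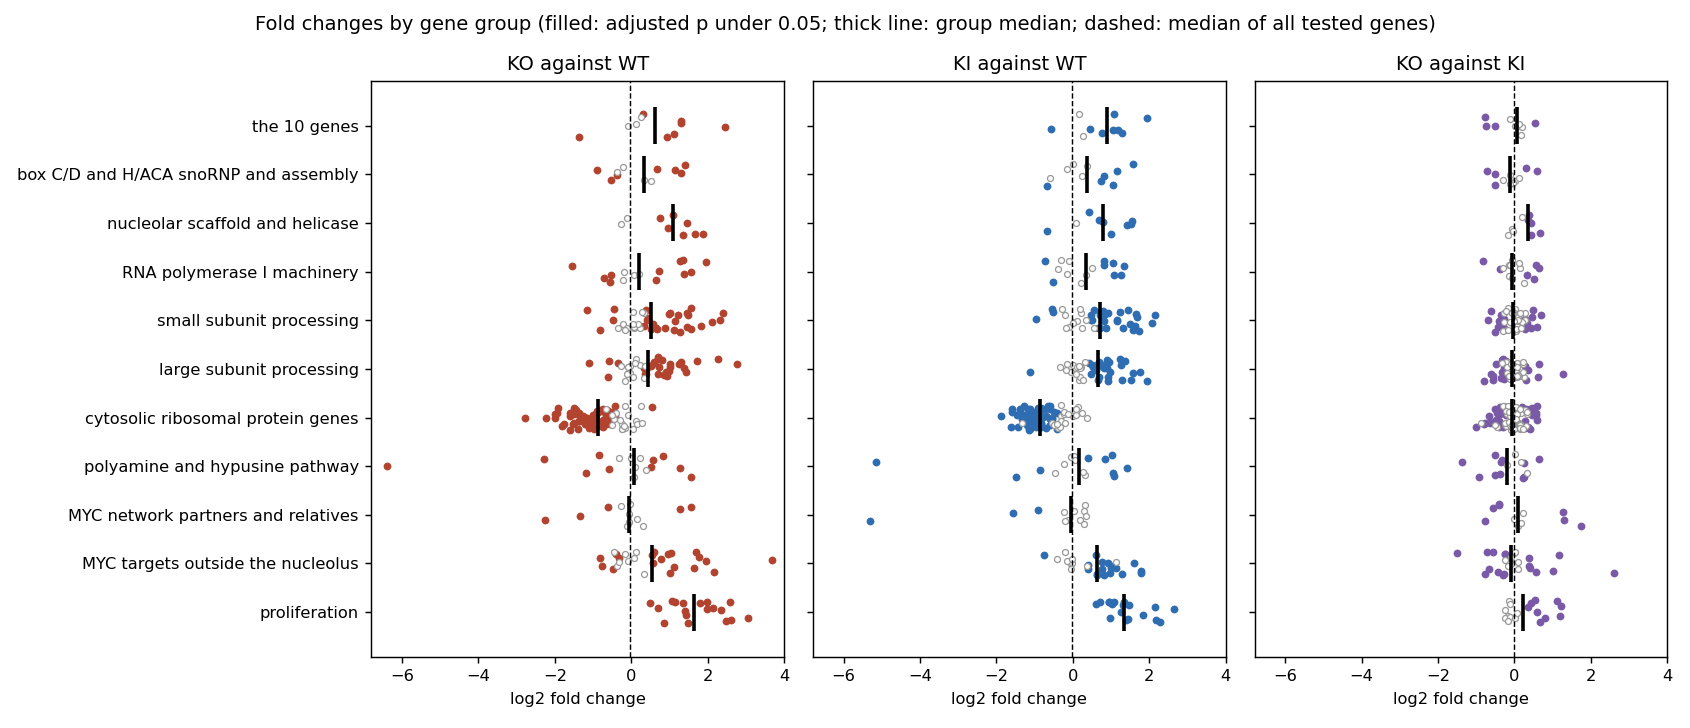
log2 fold changes (x axis) of the tested genes of each group (y axis) in KO against WT, KI against WT and KO against KI, with filled points for an adjusted p under 0.05, a thick line for the group median and a dashed line for the median of all genes tested. The group medians of small and large subunit processing lay at 0.53 and 0.45 in KO and at 0.71 and 0.66 in KI, those of cytosolic ribosomal protein genes at -0.87 and -0.85, and between KO and KI all of these were within 0.07 of 0.

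The genes of the cytosolic ribosomal proteins did not move with the assembly genes. Of 79 tested, 60 were lower and 1 higher in KO than in WT, and 59 were lower and none higher in KI, with medians of -0.87 and -0.85, where 28.4% and 21% of all genes were lower. By library totals 40 were lower and 6 higher in KO (median -0.43), and 44 lower and 3 higher in KI (median -0.50), where 15.9% and 10.6% of all genes were lower. They took 7.06 to 9.48% of WT counts, 5.41 to 6.71% of KO counts and 5.42 to 6.16% of KI counts. *Rack1*, the gene of a ribosome-bound scaffold protein and a host of snoRNAs, also fell (-0.89 and -0.69). Many of these genes have processed pseudogenes, so their counts are uncertain.

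Fold changes against WT also ran with gene length and base composition. In KO against WT the median log2 fold change was -0.36 in the decile of genes with the shortest coding sequences and 0.28 in the decile with the longest, and in KI against WT it was -0.23 and 0.20. Over deciles of GC content it was -0.34 in the lowest and 0.07 in the highest for KO, and -0.20 and -0.04 for KI. *Npm1* and *Srm*, which changed in opposite directions, have coding sequences of 876 and 906 bases and fall in the same decile by length, whose median was -0.06 in KO against WT. *Npm1*, *Ncl* and *Dkc1* lie in the second decile from the bottom by GC content, with a median of -0.18. When TMM was run within 10 bins of coding length, the same numbers of members were called (6 raised and 1 lowered in KO, 7 and 1 in KI), with 60 and 59 lowered ribosomal protein genes becoming 49 and 53, and 27 and 28 raised genes of large subunit processing becoming 27 and 30. For small subunit processing 23 genes were then raised in KO and 26 in KI, with medians of 0.42 and 0.58. For scaffold genes 8 were raised in KO and 7 in KI, with 1 lowered in each, and the medians were 0.80 and 0.60. The largest KO value was then 2.12 in small subunit processing and 2.46 in large subunit processing. Of all genes tested 26.5% were then higher and 30.6% lower in KO, and 21.8% and 22.9% in KI. With TMM within 10 bins of GC content, 7 members were raised and 1 lowered in KO (all genes 26.1% and 29.6%), and 8 and 1 in KI (21% and 23%). *Ncl* and *Nop58* gained a call and *Odc1* lost one in KO against WT, and *Nop58* gained one in KI against WT. In the same setting 64 and 65 ribosomal protein genes were lowered, and 24 and 28 genes of large subunit processing were raised. Medians also differed between chromosomes. In KO against WT they were 0.53 on chromosome 7, 0.49 on 16, -0.34 on 11 and -0.34 on 12. *Fbl* lies on chromosome 7, *Npm1* on 11 and *Odc1* on 12. In KI against WT these medians were 0.10, -0.03, -0.09 and 0.06. Of other named genes, *Rrp8*, *Ruvbl2*, *Ccne1*, *Mki67* and *Plk1* lie on chromosome 7 and *Urb1* on 16. The part of such shifts in the changes of single genes was not tested.

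**Figure D4:**
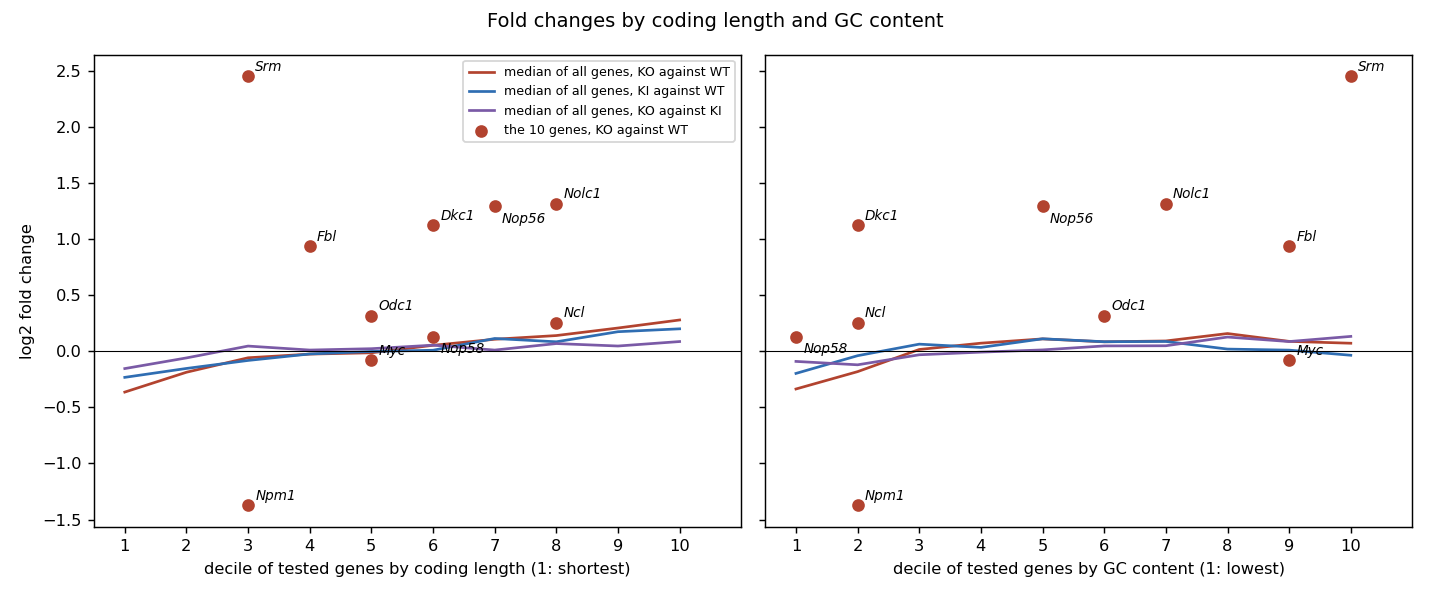
Median log2 fold change of all genes with a GENCODE M21 coding sequence (lines, 3 comparisons) in deciles of coding length (left) and of transcript GC content (right), with the KO against WT value of each of the 10 genes as points. The medians ran from -0.36 to 0.28 over length in KO against WT, whereas Srm (2.45) and Npm1 (-1.37) shared a decile.

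Among 12 tested genes of the network of *Myc*, its relatives and partners, 2 rose and 3 fell in KO, and none rose and 3 fell in KI, against 26.7% higher and 28.4% lower of all genes in KO and 21.2% and 21% in KI. With library totals 3 rose and 2 fell in KO, and 4 rose and 3 fell in KI. Of all genes 42.5% were then higher and 15.9% lower in KO, and 34.1% and 10.6% in KI. With TMM within bins of coding length 2 rose in KI, where 21.8% of all genes were higher. *Mycn* was low, with 66 to 85 counts in WT libraries, 9 to 42 in KO and 0 to 2 in KI, and was called lower in both lines. The MAX partner genes *Mxi1* (-1.34 and -0.91) and *Mxd4* (-0.61 in KO, and at 95.2 ± 9.88 CPM in KI against 83.4 ± 9.79 in WT) encode proteins known to oppose MYC. *Mxd3* (1.58), of the same family of MYC opponents, and the MYC relative *Mycl* (1.28) rose in KO from low levels of 1.61 ± 0.41 and 1.64 ± 0.39 CPM in WT. Of 27 tested textbook targets of MYC outside the nucleolus, 14 rose and 5 fell in KO, and 17 rose and 1 fell in KI (medians 0.55 and 0.63), against 26.7% and 28.4% of all genes in KO and 21.2% and 21% in KI. By library totals 18 rose and 1 fell in each line, against 42.5% and 15.9% of all genes in KO. In KI these shares were 34.1% and 10.6%. Over left-out libraries the number that fell in KO ran from 2 (without WT 5-6 or WT 7) to 7 (without WT 8). The pyrimidine synthesis gene *Cad* (2.16 and 1.61) and the mitochondrial folate enzyme gene *Mthfd2* (1.95 and 0.97) rose in both lines. *E2f2* rose in KO (3.69, to 13.3 ± 0.42 CPM from 0.944 ± 0.82). *Eif4a1* (-0.82) and *E2f1* (-0.39 with TMM, 0.03 with library totals) fell in KO, and *E2f1* also fell in KI (-0.75, adjusted p = 0.000889, edgeR). The KO call of *E2f1* was lost in 5 of 7 fits that left out a library. The transferrin receptor gene *Tfrc* fell in KO (-0.77) and rose in KI (0.75), and each call was lost in 1 of 7 such fits. Library totals also ended the KO call of *Tfrc*.

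In the rest of the polyamine and hypusine pathway, 5 of 16 genes were raised and 5 lowered in KO, near the shares of all genes (26.7% and 28.4%). In KI 6 were raised and 3 lowered (all genes 21.2% and 21%). With library totals 9 were raised and 3 lowered in each line. Of all genes 42.5% were then higher and 15.9% lower in KO, and 34.1% and 10.6% in KI. The genes of S-adenosylmethionine decarboxylase, *Amd1* (0.83 and 0.83) and *Amd2* (1.56 and 1.41), which supplies the aminopropyl group to spermidine synthase, and of the salvage enzyme *Mtap* (1.27 and 1.03) rose with *Srm*, although *Amd2* is a near-identical copy of *Amd1* and reads may be split between them. Spermine oxidase (*Smox*) fell from 40.9 ± 3.04 CPM in WT to 8.51 ± 1.13 in KO and 22.4 ± 1.49 in KI (-2.28 and -0.87), and *Azin2* fell as well (-1.19 and -1.50). *Eif5a2*, a paralogue of the hypusine-bearing factor eIF5A, had 251 to 301 counts in WT libraries, 0 to 10 in KO and 0 to 19 in KI.

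Markers of proliferation were higher in both edited lines, whereas those of cell type moved in part and not all alike in KO and KI. All 18 proliferation genes were higher in KO and all 18 in KI than in WT, with medians of 1.65 and 1.33, against 26.7% and 21.2% of all genes higher. *Mki67* was at 352 ± 49.9 CPM in KO (SD, n = 4), 56.2 ± 3.40 in WT (n = 3) and 154 ± 27.6 in KI (n = 4), and cyclin E1 (*Ccne1*, 3.05 and 2.28) and *Plk1* (2.59 and 1.39) also rose. The summed level of the 18 genes was 2034 ± 110 CPM in KO, 745 ± 93.0 in WT and 1771 ± 167 in KI, with *Pcna* as the most abundant by the mean over all 11 libraries, although *Mki67* was higher in KO and *Top2a* had a higher mean in KO and in KI. The part of this list in the changes of the nucleolar genes was not tested.

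Of 15 hepatocyte markers tested in KO against WT, 9 rose and 4 fell (all genes 26.7% and 28.4%), and of 13 tested in KI against WT 4 rose and 5 fell (all genes 21.2% and 21%). Albumin had 128763 to 170033 counts in KO libraries, 10542 to 16579 in WT and 5257 to 11551 in KI, and *Apoa1* (3.77 in KO) and *Cps1* (66 to 141 counts in KO, 0 to 16 in WT) were also raised in KO. *Ahsg* had 146 to 242 counts in KO libraries, 0 to 2 in WT and 0 in KI. *Apoe* (-1.34 and -1.87), *Trf* (-1.16 and -1.08) and *Fgb* (-1.03 and -2.94) fell. In every WT and KI library the keratin gene *Krt8* was higher than albumin, and in every KO library albumin was higher (3589 to 4767 CPM, against 2378 to 3110 for *Krt8*). The summed level of the list was 10691 ± 867 CPM in KO, 9151 ± 1171 in WT and 9661 ± 682 in KI.

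Of the genes of bile duct cells, *Spp1*, *Krt7* and *Sox9* were lower in KO. Osteopontin (*Spp1*) was at 246 ± 29.8 CPM in KO, 2520 ± 692 in WT and 1958 ± 116 in KI, *Krt7* at 17.0 ± 1.34, 177 ± 11.02 and 118 ± 10.2, and *Sox9* fell in KO as well (-0.47), while *Krt19* rose (0.49). Vimentin rose in KO (0.65) and was at 746 ± 55.2 CPM in KI against 771 ± 110 in WT, whereas 7 of the 9 stellate cell genes did not reach the minimum for testing. Leukocyte markers summed to 2.30 ± 0.28 CPM in KO, 8.44 ± 1.50 in WT and 4.62 ± 1.47 in KI, with *Cd68* as the most abundant by the mean over all libraries (-1.98 and -1.56) and *Ptprc* lower in KO (-3.45), and none of the 6 endothelial markers was tested.

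RefSeq promoter windows (GRCm38.p6, 250 bases before to 50 after the start) were at hand for 6 of the 10 genes, *Ncl*, *Nop56*, *Nop58*, *Dkc1*, *Nolc1* and *Odc1*. The MYC and MAX motif CACGTG, which reads the same on both strands, was in no window of these 6 genes. It was in a window of 8.09% of all 27025 genes and of 11.7% of tested genes. The variant CACGCG, searched on both strands, was in the windows of *Nolc1* and *Odc1*, in 10.5% of all genes and in 19.8% of tested genes. The stretches before the start are shown because they belong to the 2 members with a variant motif, whose letters are in capitals (CGCGTG is CACGCG on the other strand).
Nolc1, chr19:46075810-46075839, plus strand: gcaggatgatgaCGCGTGtgggaccggaag
Odc1, chr12:17544760-17544789, plus strand: cgggtgggtgggCACGCGctgcgccccgcc
Odc1, chr12:17544681-17544710, plus strand: ggtgatgtggtgCGCGTGcgcaggcctgcc
The capitals begin 25 bases before the RefSeq start of *Nolc1*, and 101 and 180 bases before that of *Odc1*. Of the other groups, CACGTG was in a window of 11 of 33 genes of small subunit processing and of 7 of 37 of large subunit processing. Such genes were 4 of 13 in the polyamine pathway, 5 of 12 in the MYC network and 12 of 25 textbook targets of MYC outside the nucleolus. They were 0 of 9 genes of snoRNP assembly, 1 of 7 nucleolar scaffold genes and 2 of 15 genes of the RNA polymerase I machinery. Among ribosomal protein genes they were 6 of 58, and among proliferation genes 0 of 15. In *Eif4a1*, one of the textbook targets of MYC, which fell in KO, the motif CACGTG lies 189 bases before the start.
Eif4a1, chr11:69672595-69672624, minus strand: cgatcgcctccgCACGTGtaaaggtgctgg
A match of letters is a description and no evidence of binding. The windows end 50 bases after the start and 6 windows are few, so the lack of a match tells nothing of sites outside them.

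The members were last compared across scalings and left-out libraries. The rises of *Fbl*, *Nop56*, *Dkc1*, *Nolc1* and *Srm* against WT were called in both lines under every alternative run, as were the fall of *Npm1* in KO and the rises of *Myc* and *Odc1* in KI. Their log2 fold changes with a library left out ranged in KO from 0.89 to 1.01 for *Fbl*, from 1.22 to 1.52 for *Nop56*, from 0.93 to 1.30 for *Dkc1*, from 1.22 to 1.54 for *Nolc1*, from 2.36 to 2.63 for *Srm* and from -1.54 to -1.08 for *Npm1*. With library totals, 8 members were higher and 1 lower in KO than in WT, where 42.5% of all genes tested were called higher and 15.9% lower, and 9 were higher and none lower in KI, where the shares were 34.1% and 10.6%.

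**Figure D5:**
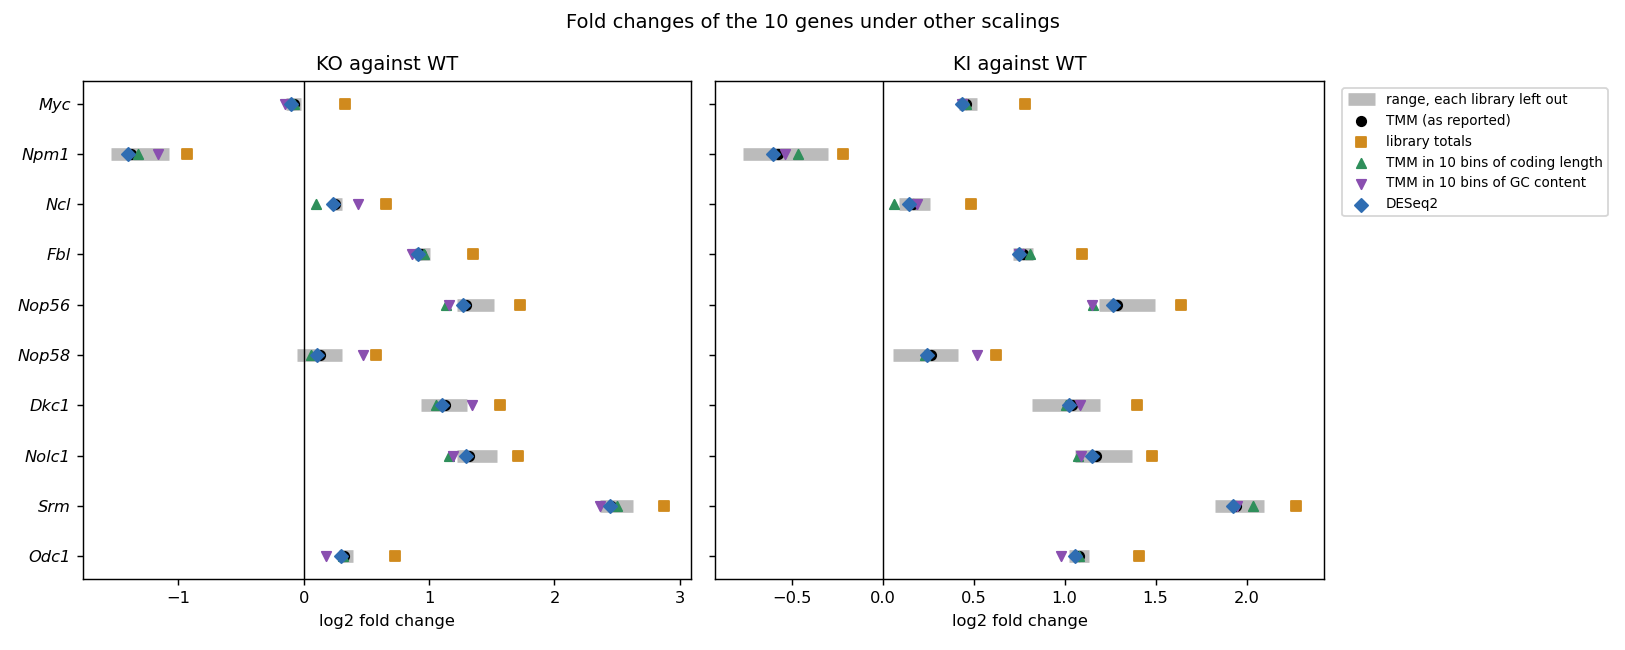
log2 fold changes (x axis) of the 10 genes (y axis) in KO against WT and KI against WT with TMM (circles), library totals (squares), TMM within bins of coding length or GC content (triangles) and DESeq2 (diamonds), and the range over fits that each left out 1 library (grey). Library totals moved all genes to the right, which took Myc in KO from -0.08 to 0.33 and left Npm1 in KI at -0.22.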

How the data were processed

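The authors deposited 1 table with raw read counts per gene for the 11 libraries, made by their sequencing provider, and per the labels HISAT2, TopHat2, Bowtie2 and StringTie were among the tools. The genome build was not given in the sources used here. Of 26472 lines, 10 held no counts and 26462 entries were used (23502 annotated, 2960 newly assembled). The 1131 names with several entries were added up, giving 24849 genes. The 11 FPKM columns, in which decimal points are damaged, and 9 columns of the authors' own comparisons (fold changes and p-values) were not used.

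Genes passing filterByExpr were tested with the quasi-likelihood test of edgeR 4.0.16 (R 4.3.3, TMM, prior count 2, only the 2 groups compared in a fit), with Benjamini-Hochberg adjustment over all genes tested and a call at an adjusted p under 0.05. All 10 members passed the filter in all 3 comparisons. Intervals are 95%. Levels are CPM scaled by TMM over all 11 libraries. Coding length, GC content and gene positions were taken from GENCODE M21 (GRCm38) by gene name, and 89.2% of genes tested in KO against WT had a coding sequence. On simulated counts for KO against WT, 140 of 195 genes changed 2-fold were found, with 6 false calls among 13152 genes. Few genes changed in this simulation and the libraries did not differ in composition, whereas 55.1% of genes were called in the data. Its rates therefore need not hold for the data.

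Members and gene lists were chosen with earlier results of these data known. From each other list the text names up to 3 called genes that rose and 3 that fell most in KO against WT without overlap between groups, and the 5 genes most correlated with *Myc* and with the mean of the other 9. Ribosomal protein genes are given by counts only. *Alb* and the most abundant gene of a list were added after the values were seen. A gene of the bile duct list is not reported here. Alternatives were edgeR with DESeq2 size factors or library totals, DESeq2 1.42.0, limma 3.58.1 on log2(CPM + 1), no filter, all libraries in 1 fit, a replicate block, each library left out, leaving out the 2 largest newly assembled entries and, chosen after seeing the data, annotated genes only and TMM within 10 bins of coding length or of GC content. Of the list of snoRNA host genes only *Rack1* was matched, the others being not analysed here.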

Additional observations from a re-analysis of the deposited data

Results flagged for a closer look

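Among the 10 genes and *Txndc5* in the KO and KI groups, 22 groups of 4 libraries were looked at for a library far from the others, and 1 was found, where chance gives about 1.1. *Srm* in KI library 6 was at 30.7 CPM, while the other 3 KI libraries were at 24.4 to 24.7 CPM, so that the gap to the nearest library was 0.965 of the group's range. Its 2 table entries were both higher in this library (347 and 766 counts) than in the other KI libraries (262 to 333 and 541 to 612 counts). Without KI library 6, *Srm* was still called in KI against WT (log2 fold change 1.85, adjusted p = 4.99e-05, edgeR) and in KO against KI (0.62, adjusted p = 0.000956).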

How the results depend on the processing

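Of the member values under an alternative, 523 kept their direction and their side of the threshold, 10 gained a call, 12 lost one and 5 changed sign, none of the last being called. The sign changed for *Myc* in KO against WT with library totals (0.33), for *Nop58* in KO against WT without WT 8 (range over left-out libraries -0.0526 to 0.306) and for *Nop56* in KO against KI in 3 of 8 fits that left out a library (-0.0964 to 0.0913), and with library totals also for *Nufip1* (0.0253), *Las1l* (0.0817) and *E2f1* (0.0303) in KO against WT, and the cause was not tested. Calls of other named genes that ended with a library left out were, in KO against WT, *Nufip1* (KO 6, KO 7, KO 8, WT 7 or WT 8), *Las1l* (KO 6, KO 7, KO 8, WT 5-6 or WT 7), *E2f1* (KO 5, KO 6, KO 7, WT 5-6 or WT 7), *Sox9* (KO 5, KO 6, WT 7 or WT 8) and *Tfrc* (WT 7), and in KI against WT *Taf1d* (WT 5-6, WT 7, KI 5, KI 6 or KI 7), *Polr1d* (WT 5-6, KI 6 or KI 7) and *Tfrc* (WT 5-6). Library totals also ended the calls of *Mxd4*, *Znhit3*, *Polr1d*, *Utp3*, *Pes1*, *Tfrc*, *Fgb* and *Sox9* in KO against WT and of *Nufip1*, *Taf1d*, *Polr1d*, *Utp3* and *Krt7* in KI against WT. Members called numbered 6 to 8 in KO against WT, 7 to 8 in KI against WT and 4 in KO against KI over left-out libraries, where 6161 to 8449, 4276 to 6969 and 6515 to 7230 of all genes were called. In KO against WT 7364 genes were called (48.5% of them higher), against 7799 (72.8% higher) with library totals, and in KI against WT 5722 (50.2%) against 6058 (76.3%). Whether replicate numbers pair the libraries was not settled. Deviations of same-numbered libraries from their line means had correlations of -0.43 to 0.57, and those of different-numbered libraries -0.55 to 0.48. Same-numbered KO and WT libraries had 0.57 (KO 8 and WT 8), 0.51 (KO 5 and WT 5-6), 0.09 (KO 7 and WT 7) and -0.13 (KO 6 and WT 5-6). With a replicate block 8183, 4891 and 6453 genes were called in KO against WT, KI against WT and KO against KI, and 7, 8 and 4 members as without it. Over left-out libraries, counts of lowered genes moved by over 1.5 times in KO against WT for snoRNP assembly (3, and 1 without KO 6, KO 7, KO 8 or WT 7), RNA polymerase I (4, and 2 without KO 6, KO 8, WT 5-6 or WT 7), large subunit processing (4, and 2 without KO 6, WT 5-6 or WT 7), MYC targets (5, and 3 without KO 5, KO 7 or KO 8, 2 without WT 5-6 or WT 7) and scaffold genes (0, and 1 without WT 8). In KI against WT they moved for RNA polymerase I (2, and 0 without WT 5-6, KI 6 or KI 7, 1 without WT 7 or KI 5, 5 without WT 8), small subunit processing (3, and 6 without WT 8), large subunit processing (1, and 4 without WT 8, 2 without KI 8), snoRNP assembly (1, and 2 without WT 8 or KI 8) and MYC targets (1, and 3 without WT 8). Raised genes so moved were those of the MYC network in KI (0, and 1 without WT 5-6, 2 without WT 8), hepatocyte markers in KI (4, and 2 without WT 7) and ribosomal protein genes in KO (1, and 2 without WT 5-6, 4 without WT 8). Depth was at least 29840366 counts a library, the lowest count of a member was 140 (*Srm* in WT 7), and a library left out of WT leaves 2.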
